A study of Mus musculus with 12 samples.

Results

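The genes described here are Gdf15, the 3 sestrins Sesn1, Sesn2 and Sesn3, Ddit4 and Exoc4, which make up 6 of the 27179 genes in a table of mouse kidney RNA levels. They were found by NCBI Gene number (Gdf15 23886, Sesn1 140742, Sesn2 230784, Sesn3 75747, Ddit4 74747 and Exoc4 20336). Gdf15, Sesn2 and Exoc4 were selected on their higher level after cisplatin in wild-type kidneys, where they had limma adjusted p of 0.0173, 0.0222 and 0.0222 against a threshold of 0.05, and Sesn1, Sesn3 and Ddit4 were taken by family or by role. The nearest of the latter to that threshold was Ddit4, which ranked 1521 by p with an adjusted p of 1. The comparison of cisplatin with saline in wild-type kidneys therefore chose members, and its values are given as a description with no test. All 6 genes reached 1 TPM (a transcript level corrected for gene length and library size) in at least 3 libraries, as did 14972 genes in all, and these were the genes tested.

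Whole kidneys of 12 mice were sequenced, 3 in each of 4 groups, which are wild-type mice on saline or on cisplatin and FAN1KO mice on saline or on cisplatin. FAN1KO mice ({Gamma}GT1-Cre;Fan1-/- in the labels) lack FAN1, a nuclease of DNA interstrand crosslink repair, where the Ggt1 promoter drives Cre, which is the proximal tubule, and other kidney cells keep the gene. Cisplatin, a drug that crosslinks DNA, was injected into the peritoneum once a week at 2 mg/kg, 5 times, and the control mice were injected with saline. All 4 groups were 8 to 12 weeks old. The labels give their strain background as mixed, while the methods of the study describe backcrossing to a 129Sv-Elite background, and the comparisons ask how the RNA of these genes differed with the drug and with loss of FAN1.

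GDF15 is a secreted hormone of the transforming growth factor beta superfamily that injured cells release, and it acts on the brainstem through the receptor GFRAL with its co-receptor RET to reduce food intake. Sestrins are stress-inducible proteins that hold back mTORC1, the growth kinase complex, and take part in antioxidant defence. SESN1 and SESN2 are known as products of p53 target genes, SESN2 also of the ATF4 stress response, and SESN3 of a FoxO target gene. DDIT4 (REDD1) also holds mTORC1 back, through the TSC complex, and its gene is known to respond to hypoxia, glucocorticoid, p53 and ATF4. EXOC4 is a subunit of the exocyst, the complex that tethers secretory vesicles to the plasma membrane.

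The 210 bases before the gene start are shown for the 4 genes called higher from FAN1KO saline to FAN1KO cisplatin. The levels of those libraries did not enter the wild-type difference that chose members, but their spread entered its p. They were read from RefSeq promoters of GRCm38.p6, the assembly that mm10 names. Capitals mark matches, on either strand, to 6 motifs: the p53 half-site, the ATF4 composite site TGATGNAA, the AP-1 site TGANTCA, the hypoxia element ACGTG, the FoxO site GTAAACA and the CCAAT box, which on the printed strand reads in reverse as ATTGG.
Exoc4: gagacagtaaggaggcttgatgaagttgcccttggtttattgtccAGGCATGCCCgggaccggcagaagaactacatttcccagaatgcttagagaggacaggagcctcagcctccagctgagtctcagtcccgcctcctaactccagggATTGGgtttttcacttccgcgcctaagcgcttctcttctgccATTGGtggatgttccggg
Sesn2: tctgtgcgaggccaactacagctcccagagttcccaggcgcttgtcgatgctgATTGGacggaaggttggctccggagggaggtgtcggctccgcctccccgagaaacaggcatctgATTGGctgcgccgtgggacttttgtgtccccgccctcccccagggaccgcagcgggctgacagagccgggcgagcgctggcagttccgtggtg
Gdf15: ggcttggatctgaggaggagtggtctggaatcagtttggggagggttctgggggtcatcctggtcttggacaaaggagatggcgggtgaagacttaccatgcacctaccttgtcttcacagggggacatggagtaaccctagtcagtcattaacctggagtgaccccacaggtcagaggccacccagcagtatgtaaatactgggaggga
Ddit4: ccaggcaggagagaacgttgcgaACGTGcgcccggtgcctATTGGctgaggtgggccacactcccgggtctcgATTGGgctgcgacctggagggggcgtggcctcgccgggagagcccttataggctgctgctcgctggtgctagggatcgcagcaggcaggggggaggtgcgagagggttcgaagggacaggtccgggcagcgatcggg
The Exoc4 window (chr6:33248880-33249089, plus strand) held 1 p53 half-site, beginning 165 bases before the gene start, and 2 CCAAT boxes at 60 and 18 bases. The Sesn2 window (chr4:132510457-132510666, minus strand) held 2 CCAAT boxes, at 157 and 93 bases. The Ddit4 window (chr10:59951771-59951980, minus strand) held 1 hypoxia element at 187 bases and 2 CCAAT boxes at 170 and 137 bases. None of the 6 motifs matched in the Gdf15 window (chr8:70632471-70632680, minus strand). The windows of Sesn1 and Sesn3, which are not shown, held 1 and 3 CCAAT boxes and no other match. Of 32851 promoter windows of this length, 5.88% held a p53 half-site, 2.97% an ATF4 composite site, 5.69% an AP-1 site, 14.5% a hypoxia element, 2.62% a FoxO site and 30.3% a CCAAT box. A match in these letters is a description of the sequence and not of binding.

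Several features of the whole series touch these genes. The libraries held 37201916 to 82947187 reads assigned to genes, recovered from the steps in the TPM values, and the 6 genes had 196 to 6004 reads each. The 10 proximal tubule markers summed to between 2912 and 10456 TPM in the 12 libraries, with no marker at 0 in all 3 libraries of any group. Fan1 itself, measured in whole kidneys, overlapped between genotypes at 1.17 to 2.28 TPM in FAN1KO saline and 1.98 to 3.80 TPM in wild-type saline kidneys, and so did not check the labels. In each group 1 library held Y-linked RNA (replicate 3 of wild-type saline and of FAN1KO cisplatin, replicate 1 of FAN1KO saline and of wild-type cisplatin). That library was the lowest of its group in all 4 groups for Sesn1 and Sesn3, in 3 of 4 for Gdf15, Sesn2 and Ddit4 and in 2 of 4 for Exoc4, and 41.6% of all genes tested were likewise lowest there in all 4 groups. TPM sum to the same total in each library, and from FAN1KO saline to FAN1KO cisplatin the median change of all genes was 0.37 (log2), so values scaled by each library's median ratio to the others are given beside most values of the 6 genes and of the listed genes. After that scaling 14.4% of all genes were called higher and 14.0% lower in this comparison, in place of 34.9% and 4.9%.

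Gdf15, which encodes the secreted hormone, had the largest fold change of the 6 genes. Its level was 12.7, 14.0 and 10.5 TPM in wild-type saline kidneys and 12.0, 8.03 and 10.0 TPM in FAN1KO saline kidneys. After cisplatin it was 39.9, 66.8 and 67.6 TPM in wild-type kidneys and 238, 247 and 192 TPM in FAN1KO kidneys. The genotypes overlapped under saline, every wild-type cisplatin library was above every saline library, and every FAN1KO cisplatin library was above every other library. In means, the levels were 12.4 ± 1.77, 10.0 ± 2.00, 58.1 ± 15.8 and 226 ± 29.2 TPM (SD, n = 3 each) in that order of groups.

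From FAN1KO saline to FAN1KO cisplatin Gdf15 rose 22.5-fold in mean TPM. The levels of these libraries did not enter the wild-type difference that chose the gene. Their spread entered the SE that both comparisons share, so the test is not independent of the choice, here or for Sesn2 and Exoc4. The log2 fold change was 4.37 (SE 0.21) with a limma adjusted p of 3.79e-06, and 3.92 after median-ratio scaling. Only 11 of the 14972 genes had a larger log2 fold change. The exact permutation test of 3 against 3 gave p = 0.1, two-sided, which is the smallest it can give. With Gdf15, 4 of the 6 genes were called higher in this comparison, against 34.9% of all genes tested, and 4 of 6 had 3 values all above the other 3, against 47.4%.

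In wild-type kidneys the log2 difference of Gdf15 was 2.11 (SE 0.21), and its mean was 4.70 times that of the saline group. Gdf15, Sesn2 and Exoc4 were the members without overlap there, as were 5.2% of all genes in that direction. Under cisplatin the FAN1KO mean was 3.89 times the wild-type mean, a log2 difference of 1.97, and the 3 values did not overlap with the other 3. The 2 cisplatin effects differed by 2.26 on the log2 scale (SE 0.30), or 1.90 after scaling. These 3 values are descriptions, as they rest on wild-type libraries that chose the gene.

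**Figure D1:**
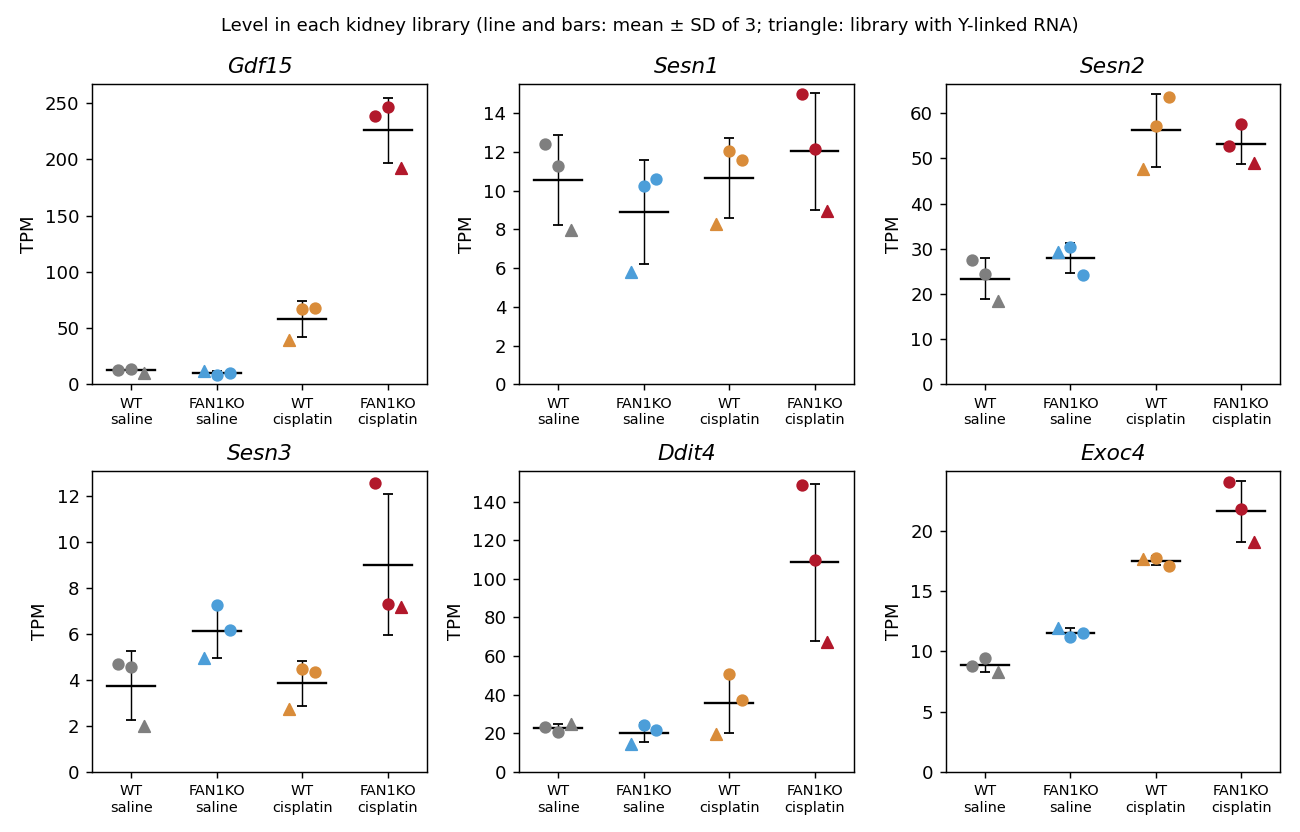
TPM of each of the 6 genes (vertical axes, from 0) in the 3 libraries of each group, with the mean and SD of the group in black and the library with Y-linked RNA as a triangle. Gdf15 lay at 192 to 247 TPM in FAN1KO cisplatin kidneys and at 39.9 to 67.6 TPM in wild-type cisplatin kidneys, while Sesn2 overlapped between those groups.

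Markers of other cells and of tubule injury were summed in the same groups. From FAN1KO saline to FAN1KO cisplatin 34.9% of all genes were called higher and 4.9% lower. The 8 macrophage markers summed to 47.2 to 121 TPM in FAN1KO saline and 247 to 550 TPM in FAN1KO cisplatin kidneys, with 6 of 8 called higher. They summed to 69.6 to 123 TPM in wild-type saline and 73.3 to 248 TPM in wild-type cisplatin kidneys, with 0 of 8 called by limma (0 at an unadjusted p under 0.05), and no macrophage marker was at 0 in all 3 libraries of a group. The 6 tubule injury markers, among them Havcr1 (KIM-1), summed to 382 to 1846 TPM and 7658 to 12152 TPM in the FAN1KO groups, with 6 of 6 called higher and none at 0. In wild-type kidneys they summed to 314 to 1579 TPM on saline and 416 to 2220 TPM on cisplatin, with 0 of 6 called by limma, 3 at an unadjusted p under 0.05 and a median log2 difference of 1.19. The 10 proximal tubule markers fell in 6 of 10 cases, from 7373 to 10456 TPM to 2912 to 5535 TPM. The 5 red blood cell markers summed to 535 to 1467 TPM and to 6.56 to 73.4 TPM, with 4 of 4 tested called lower. The 6 collecting duct markers summed to 342 to 754 TPM and to 1077 to 1673 TPM without overlap. Of these 2 of 6 were called higher, or 33.3%, near the share of all genes. After scaling 1 of the 6 was called higher, with a median log2 difference of 0.01. Scaled calls were 6 macrophage and 6 injury markers higher, and 6 proximal tubule and 4 red blood cell markers lower. All genes then gave 14.4% higher and 14.0% lower. The part of these markers in the changes of Gdf15, Sesn2, Ddit4 and Exoc4 was not tested, and in whole kidneys fewer cells of a type cannot be told apart from less RNA per cell.

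The partners of GDF15 were measured as a list of 7 genes, all of them in the table. Gfral, the receptor gene, was listed at 0 in all 12 libraries. Ret, the co-receptor gene, lay between 0.107 and 0.383 TPM and was not tested. Furin, a convertase able to cleave prohormones, stood at 90.9 to 131 TPM over all libraries with a log2 difference of −0.02 (limma adjusted p 0.929) from FAN1KO saline to FAN1KO cisplatin. Mmp14, a membrane-bound metalloproteinase, was the 1 of 5 tested genes called higher, or 20%, beside 34.9% of all genes. Its mean went from 7.42 ± 3.15 to 45.3 ± 15.8 TPM (SD, n = 3 each), a log2 fold change of 2.49 (limma adjusted p 0.00707, 2.06 scaled). After scaling 1 of the 5 was called higher and 1 lower, beside 14.4% and 14.0% of all genes. In wild-type kidneys 0 of the 5 were called by limma, and 0 had an unadjusted p under 0.05.

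Sesn2 was the sestrin with a higher level after cisplatin in both genotypes. Its level was 27.4, 24.4 and 18.4 TPM in wild-type saline, 29.3, 30.5 and 24.2 TPM in FAN1KO saline, 47.7, 57.2 and 63.7 TPM in wild-type cisplatin and 52.7, 57.6 and 48.9 TPM in FAN1KO cisplatin kidneys. In unscaled TPM all 6 cisplatin libraries were above all 6 saline libraries, and the genotypes overlapped under either treatment. Both statements depended on the scaling. From FAN1KO saline to FAN1KO cisplatin the mean rose 1.90-fold, a log2 fold change of 0.90 (SE 0.16, limma adjusted p 0.00201). After median-ratio scaling this was 0.45 with an adjusted p of 0.0425.

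Between genotypes the unscaled TPM of Sesn2 overlapped. In wild-type kidneys its log2 difference was 1.24 (SE 0.16), which was 2.40 times in means. The FAN1KO cisplatin mean was 0.944 of the wild-type cisplatin mean (log2 difference −0.07, 95% interval −0.43 to 0.28). After scaling that log2 difference was −0.38, so the likeness of the genotypes depended on the scaling. The 2 cisplatin effects differed by −0.33 (SE 0.23), or −0.69 after scaling. Under cisplatin Gdf15 was higher in FAN1KO than wild-type kidneys in every library, whereas Sesn2 was not. The difference between the 2 genes was not itself tested.

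Ddit4, which encodes another inhibitor of mTORC1, rose in FAN1KO kidneys. Its level was 23.0, 20.8 and 24.7 TPM in wild-type saline and 14.7, 24.4 and 21.8 TPM in FAN1KO saline kidneys. It was 19.6, 50.6 and 37.4 TPM in wild-type cisplatin and 149, 110 and 67.4 TPM in FAN1KO cisplatin kidneys. The wild-type cisplatin library with Y-linked RNA lay below every wild-type saline library, so those groups overlapped, while the 3 FAN1KO cisplatin libraries were above the other 9.

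From FAN1KO saline to FAN1KO cisplatin Ddit4 rose 5.36-fold in means, a log2 fold change of 2.32 (SE 0.35, limma adjusted p 8.95e-04), with 191 genes showing a larger value, and 1.87 after scaling. Between genotypes under cisplatin it was 3.03 times as high in FAN1KO kidneys, a log2 difference of 1.60 (SE 0.35, limma adjusted p 0.00998), or 1.295 after scaling (adjusted p 0.00948), and the values did not overlap. Of Sesn1, Sesn3 and Ddit4, which could be tested there, Ddit4 and Sesn3 were called higher, against 19.6% of all genes. Without FAN1KO cisplatin replicate 1 the Ddit4 difference was 1.34 with an adjusted p of 0.0516. Between the same groups 6 of 6 tubule injury and 2 of 8 macrophage markers were called higher in FAN1KO kidneys, beside 19.6% of all genes. Called lower were 6 of 10 proximal tubule and 4 of 4 red blood cell markers, beside 4.37% of all genes. Their part in the differences of Ddit4 and Sesn3 was not tested.

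The wild-type log2 difference of Ddit4 was 0.53 (SE 0.35), given as a description. The difference between the 2 cisplatin effects was 1.79 (SE 0.49) with a limma adjusted p of 0.0572, short of the threshold of 0.05, where 5.22% of all genes were called higher. After scaling it was 1.44 (adjusted p 0.0674). With a Y-linked covariate the adjusted p was 0.00398, and without wild-type cisplatin replicate 2 or FAN1KO cisplatin replicate 3 it was 0.0466 and 0.0339. Under saline the genotypes differed by −0.19 (adjusted p 1.00, 95% interval −0.96 to 0.58), where 0.768% of all genes were called.

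Sesn1 and Sesn3, the sestrins best known from the p53 and FoxO responses, were lower in level than Sesn2. Sesn1 was 12.4, 11.3 and 7.97 TPM in wild-type saline, 5.79, 10.2 and 10.6 TPM in FAN1KO saline, 8.31, 12.1 and 11.6 TPM in wild-type cisplatin and 15.02, 12.1 and 8.96 TPM in FAN1KO cisplatin kidneys. All 4 groups overlapped. Its log2 difference from FAN1KO saline to FAN1KO cisplatin was 0.41 (95% interval −0.16 to 0.99, limma adjusted p 0.226), which was close to the median of all genes, 0.37, and came to −0.01 after scaling. With a Y-linked covariate it was 0.43 with an adjusted p of 0.00413, and without the 4 libraries with Y-linked RNA 0.34 with an adjusted p of 0.050.

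Sesn1 showed no call in the other tested comparisons. The genotypes differed by 0.15 under cisplatin (limma adjusted p 0.703, 95% interval −0.43 to 0.73, −0.13 after scaling) and by −0.25 under saline (adjusted p 1.00, 95% interval −0.82 to 0.33). The wild-type difference, a description, was 0.02.

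Sesn3 was called between genotypes under cisplatin and not between treatments. Its level was 4.69, 4.57 and 2.00 TPM in wild-type saline, 4.93, 7.25 and 6.19 TPM in FAN1KO saline, 2.71, 4.47 and 4.35 TPM in wild-type cisplatin and 12.6, 7.31 and 7.17 TPM in FAN1KO cisplatin kidneys. Every FAN1KO library was above every wild-type library given the same injections, while saline and cisplatin overlapped within each genotype. Under cisplatin the FAN1KO mean was 2.34 times the wild-type mean, a log2 difference of 1.03 (SE 0.30, limma adjusted p 0.0310), or 0.76 after scaling (adjusted p 0.0274). That call was lost without wild-type cisplatin replicate 1 (adjusted p 0.112), FAN1KO cisplatin replicate 1 (0.134) or FAN1KO cisplatin replicate 2 (0.0583), and with mitochondrially encoded genes left out (0.0532).

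Under saline the Sesn3 genotype difference was 0.63 (SE 0.30) with a limma adjusted p of 0.627 and an exact permutation p of 0.1, the smallest possible, and it was 0.70 after scaling (adjusted p 0.199). Values without overlap, all higher in FAN1KO, were seen for 4.62% of all genes under saline and 35.7% under cisplatin. From FAN1KO saline to FAN1KO cisplatin the difference was 0.46 (adjusted p 0.232, 95% interval −0.19 to 1.12), close to the median of all genes, 0.37, and it was 0.05 after scaling (adjusted p 0.869). With a Y-linked covariate it was 0.48 with an adjusted p of 0.0438. The 2 cisplatin effects differed by 0.40 (adjusted p 0.590), or 0.06 after scaling.

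Exoc4, the exocyst subunit, had an SE of 0.11 in the fit. That was the smallest of the 6 genes, and choosing a gene by its p in the same fit favours a small SE. It was 8.77, 9.43 and 8.29 TPM in wild-type saline, 11.9, 11.2 and 11.5 TPM in FAN1KO saline, 17.7, 17.8 and 17.1 TPM in wild-type cisplatin and 24.1, 21.8 and 19.0 TPM in FAN1KO cisplatin kidneys. In unscaled TPM the 4 groups stood in that order with no overlap between neighbours. Values all higher in FAN1KO than in wild-type kidneys were seen for 4.62% of all genes under saline and 35.7% under cisplatin. The gene spans 724890 bases of chromosome 6 (33249090 to 33973979, plus strand), and neither of the 2 RefSeq genes that overlap it was in the table.

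From FAN1KO saline to FAN1KO cisplatin Exoc4 rose 1.87-fold in means, a log2 fold change of 0.85 (SE 0.11, limma adjusted p 4.53e-04). After median-ratio scaling this was 0.40 with an adjusted p of 0.0562, and the call was lost. In wild-type kidneys, as a description, the log2 difference was 0.92, or 0.82 after scaling, and 146 genes were higher than that, against 2770 in FAN1KO kidneys. The genotypes differed by 0.35 under saline (0.41 after scaling) and by 0.28 under cisplatin (−0.01 after scaling). The 2 cisplatin effects differed by −0.07 (SE 0.15), or −0.42 after scaling, so their likeness depended on the scaling.

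**Figure D2:**
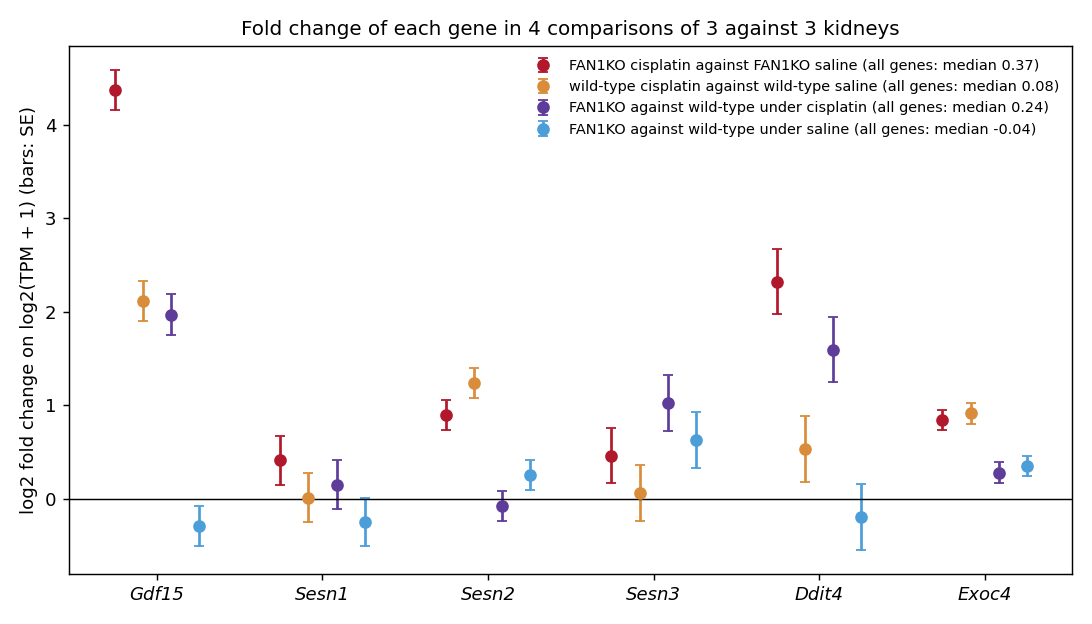
Log2 fold change on log2(TPM + 1) with its SE (vertical axis) of the 6 genes in 4 comparisons of 3 against 3 kidneys, with the median of all genes tested in the key. Gdf15 (4.37) and Ddit4 (2.32) stand highest for FAN1KO cisplatin against FAN1KO saline, while Sesn2 and Exoc4 lie near 1 for cisplatin in both genotypes.

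Exoc4 is 1 of 8 core subunits of the exocyst. From wild-type saline to wild-type cisplatin the other 7 lay between −0.06 and 0.21 on the log2 scale, and Exoc4, which was selected on this comparison, lay at 0.92, so nothing is drawn from its place among them there. From FAN1KO saline to FAN1KO cisplatin 3 of 7 were called higher: Exoc1 by 0.56 (limma adjusted p 0.0120), Exoc2 by 0.61 (adjusted p 0.0108) and Exoc5 by 0.45 (adjusted p 0.00911). The values were 0.07 for Exoc3, −0.14 for Exoc6, 0.43 for Exoc7 and 0.29 for Exoc8, none called. After median-ratio scaling Exoc1, Exoc2 and Exoc5 stood at 0.12, 0.19 and 0.01, none of them called, and Exoc3 was called lower at −0.37 (adjusted p 0.00863).

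In mean level, Exoc6 was the highest of the subunits and Exoc8 the lowest in wild-type saline kidneys, at 38.7 ± 2.76 and 5.68 ± 1.03 TPM (SD, n = 3 each). Exoc4 stood at 8.83 ± 0.575 TPM there, between Exoc2 (7.63 ± 1.38) and Exoc1 (11.9 ± 1.32). Exoc4 and Exoc2 overlapped in those kidneys, and in wild-type cisplatin kidneys the means were 17.5 ± 0.359 TPM for Exoc4, 7.94 ± 0.188 for Exoc2 and 13.8 ± 1.18 for Exoc1. A wider list of 24 exocyst and vesicle tethering genes, Exoc4 left out, had 10 called higher and 0 lower in FAN1KO kidneys, or 41.7% beside 34.9% of all genes, and 2 higher and 3 lower after scaling, where 14.4% and 14.0% of all genes were called. Stx4a, a plasma membrane syntaxin, rose by 0.81 (limma adjusted p 5.60e-04), or 0.35 after scaling. Stx1a, another syntaxin, rose by 1.01 (adjusted p 0.0360), a call lost after scaling at 0.71 (adjusted p 0.0660).

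**Figure D3:**
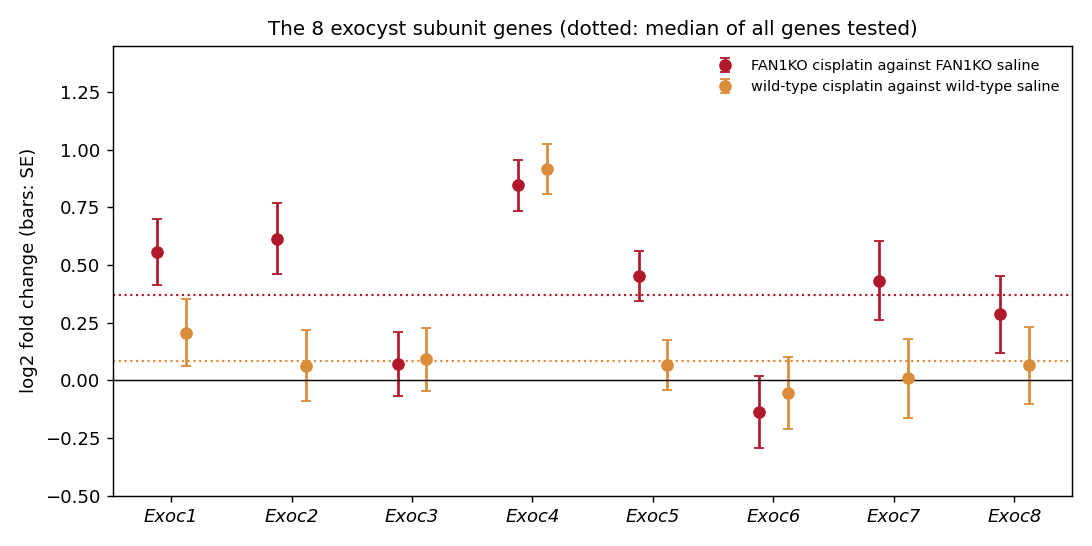
Log2 fold change with its SE (vertical axis) of the 8 exocyst subunit genes for cisplatin against saline in FAN1KO (red) and wild-type (orange) kidneys, with the median of all genes as a dotted line in each colour. In wild-type kidneys Exoc4, selected on that comparison, lies at 0.92 and the other 7 subunits between −0.06 and 0.21.

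The nearest tested genes on either side of Exoc4 were not called higher. Chchd3, which encodes a mitochondrial inner membrane protein and lies 188817 bases before it, fell by 0.37 in FAN1KO cisplatin against FAN1KO saline kidneys (limma adjusted p 0.00320). Slc35b4, a nucleotide sugar transporter gene after it, stood at 0.25 (adjusted p 0.0771). Between genotypes Slc35b4 was called lower in FAN1KO kidneys, at −0.59 under saline (limma adjusted p 0.0279) and −0.32 under cisplatin (adjusted p 0.0462). Chchd3 was called lower in FAN1KO kidneys under cisplatin, at −0.23 (adjusted p 0.0433), and was not called under saline. All genes gave 0.427% lower under saline and 4.37% under cisplatin. From FAN1KO saline to FAN1KO cisplatin, 92 tested genes that span 500000 bases or more had 14 called higher and 5 lower, with a median of 0.11. All genes gave 34.9% higher and 4.9% lower with a median of 0.37. Of the 92, 10 had a larger value than Exoc4. Beside Gdf15, Lrrc25 rose by 1.12 (adjusted p 0.0298) and Pgpep1 stood at 0.14 (adjusted p 0.533).

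Lists of related genes, with the 6 genes themselves left out, gave the surroundings of these changes. Scaled counts from FAN1KO saline to FAN1KO cisplatin, here and in the lists below, stand beside 14.4% of all genes higher and 14.0% lower. The p53 targets were called higher in 29 of 32 cases from FAN1KO saline to FAN1KO cisplatin, with 0 lower and a median log2 fold change of 1.75, beside 34.9% and 0.37 for all genes. After scaling 24 were higher and 2 lower, where 14.4% and 14.0% of all genes were called. Cdkn1a, the p21 cell cycle inhibitor, rose by 5.56 (limma adjusted p 3.42e-05, 5.11 scaled) and Phlda3, an inhibitor of AKT signalling, by 4.71 (adjusted p 4.82e-05, 4.27 scaled). In wild-type kidneys 5 of 32 were called (Cdkn1a, Phlda3, Plk2, Ccng1 and Aen), beside 0.0601% of all genes, and they stood with Gdf15, Sesn2, Exoc4 and Mir5106 among the 9 genes called there. All 9 calls were lost with only the 6 libraries of the comparison and on leaving out any 1 of its libraries other than wild-type cisplatin replicate 1, without which 40 genes were called. At an unadjusted p under 0.05 it was 17 of 32 targets in wild-type kidneys, all higher, beside 3.00% of all genes. Several targets were known to rise in wild-type kidneys when the list was written. The wild-type counts of this list are therefore a description, and nothing is drawn from their share. Between genotypes under cisplatin 20 of 32 were called higher in FAN1KO kidneys and 0 lower, beside 19.6% of all genes. After scaling 16 were higher and 1 lower, beside 8.68% and 7.71%. That comparison shares the wild-type cisplatin libraries, so its counts for this list are likewise a description, and nothing is drawn from their share.

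The ATF4 and integrated stress response list had 16 of 27 called higher and 1 lower in FAN1KO kidneys, with a median of 1.10, and 14 higher and 4 lower after scaling. That was 59.3% higher, beside 34.9% of all genes. Atf3, a stress-induced transcription factor gene, rose by 2.90 (limma adjusted p 2.04e-04, 2.54 scaled), and Phgdh, the first enzyme of serine synthesis, by 2.50 (adjusted p 2.63e-04, 2.08 scaled). Shmt2, the mitochondrial serine hydroxymethyltransferase gene, fell by 0.97 (adjusted p 0.00599, −1.43 scaled). In wild-type kidneys limma called 0 of 27, with 2 at an unadjusted p under 0.05 and a median of 0.15. Between genotypes under cisplatin 13 were called higher in FAN1KO kidneys and 1 lower, or 10 and 1 after scaling, where all genes gave 19.6% higher, or 8.68% after scaling.

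Genes through which sestrins and DDIT4 act on mTORC1 (GATOR, Rag, TSC, AMPK and mTORC1 subunits and their neighbours) were called higher in 12 of 41 cases and lower in 1, with a median of 0.34 beside 0.37 for all genes. The share called higher, 29.3%, was below the 34.9% of all genes. After scaling 4 were higher and 5 lower. Ddit4l, the paralog of Ddit4, rose by 1.99 (limma adjusted p 8.88e-04, 1.56 scaled), and Eif4ebp1, the translation inhibitor that mTORC1 phosphorylates, rose by 1.90 (adjusted p 7.57e-04, 1.44 scaled). Castor2, a member of the arginine sensor family of mTORC1, fell by 0.50 (adjusted p 0.0350, −0.94 scaled). In wild-type kidneys limma called 0 of 41, with 1 at an unadjusted p under 0.05.

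Among 16 redox partners of the sestrins 5 were called higher and 1 lower, with a median of 0.37, and 3 higher and 2 lower after scaling. That was 31.2% higher, beside 34.9% of all genes. Nqo1, the quinone reductase of the NRF2 response, rose by 1.70 (limma adjusted p 8.77e-04, 1.23 scaled), and Srxn1, the sulfiredoxin that restores peroxiredoxins, by 1.52 (adjusted p 0.00927, 1.06 scaled). Prdx3, the mitochondrial peroxiredoxin gene, fell by 0.47 (adjusted p 0.00223, −0.94 scaled).

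The FoxO and PI3K-AKT list, to which Sesn3 relates, had 5 of 21 called higher and 4 lower with a median of 0.37, and 4 and 4 after scaling. The shares were 23.8% and 19.0%, beside 34.9% and 4.9% of all genes. Gadd45b, a growth arrest and DNA damage gene, rose by 2.92 (limma adjusted p 9.06e-04, 2.50 scaled), and Cat, the catalase gene, fell by 0.86 (adjusted p 5.78e-04, −1.32 scaled). Among 22 hypoxia genes, to which Ddit4 relates, 4 were called higher and 3 lower with a median of 0.31, and 1 higher and 7 lower after scaling. These were 18.2% and 13.6%, beside the same 34.9% and 4.9%. Vegfa, the angiogenic growth factor gene, fell by 0.71 (adjusted p 0.00179, −1.17 scaled), and Pfkfb4, a regulator of glycolysis, rose by 1.04 (adjusted p 0.00661, 0.65 scaled). Of 11 glucocorticoid-responsive genes 5 (45.5%, beside 34.9%) were called higher and 0 lower with a median of 0.91, and 3 higher and 1 lower after scaling, among them Mt2, a metallothionein gene, which rose by 2.54 (adjusted p 0.00699, 2.07 scaled).

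**Figure D4:**
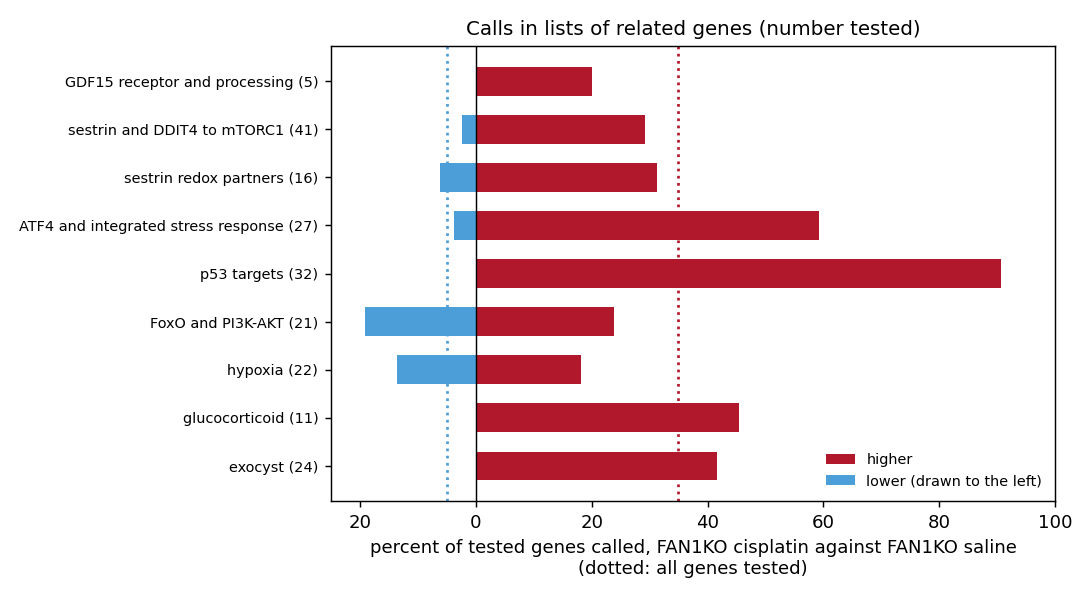
Percent of the tested genes in each list (number tested in brackets) called higher (red, to the right) or lower (blue, to the left) in FAN1KO cisplatin against FAN1KO saline kidneys, with dotted lines for all genes tested (34.9% higher and 4.9% lower). The p53 target bar ends at 90.6% and the ATF4 bar at 59.3%, and the hypoxia bar at 18.2%.

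The genes whose levels over the 12 libraries were most like each gene are given as a description, with Pearson's r on log2(TPM + 1), and the libraries fall into 4 groups, which these r share. For Gdf15 they were Eda2r (0.987), Snhg15 (0.986) and Psrc1 (0.985). For Sesn2 they were Ccng1 (0.933), Zfp750 (0.921) and Slc16a11 (0.920), and for Exoc4 Aen (0.958), Aaas (0.955) and Plk2 (0.952). With group means taken out these were 0.350, 0.456 and 0.781 for Sesn2 and 0.277, 0.525 and 0.362 for Exoc4. Ccng1, Aen and Plk2 were themselves among the genes called in wild-type kidneys. Ddit4 was most like Rhog (0.990), Zscan2 (0.986) and Rbm17 (0.986).

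Sesn1 was most like B130024G19Rik (0.985), Ifnar2 (0.975) and Cand2 (0.971), and Sesn3 like Dennd4c (0.967), Taok1 (0.959) and Ppp4r3b (0.957). The number of genes above an r of 0.9 ranged from 8 for Sesn2 and 32 for Exoc4 to 599 for Gdf15 and 2206 for Ddit4. Among the 6 genes the highest r was that of Gdf15 with Exoc4 (0.920), then Sesn2 with Exoc4 (0.918) and Gdf15 with Ddit4 (0.903). After group means were taken out these were 0.441, 0.264 and 0.461, while Sesn1 with Sesn3, at 0.516 over all libraries, was 0.848. Gdf15, Sesn2 and Exoc4 were selected on a rise in the same wild-type libraries, which favours a high r among them over all libraries.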

How the data were processed

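RNA sequencing libraries of 12 mouse kidneys, 3 per group, were analysed from 1 table of TPM that the authors deposited. The aligner and annotation are not given in the sources used here, while the submitters' processing notes name mm10 and limma. The members and gene lists were chosen with earlier results of these data known. Genes with at least 1 TPM in at least 3 libraries were tested on log2(TPM + 1), which understates changes of low genes, with limma 3.58.1 (R 4.3.3, mean-variance trend, 4 group means on 12 libraries) and Benjamini-Hochberg adjustment over 14972 genes at 0.05. Limma p-values set a difference against the spread between mice within groups, which is pooled over the 4 groups and drawn toward a trend across genes. Median-ratio scaling divided each library by its median ratio to the geometric mean. Reads were recovered from the TPM steps: all 232991 values above 0 came out whole within 0.02 reads. They were used for depth and limma's voom, chosen after seeing the data, as was leaving out the libraries with Y-linked RNA. On simulated data with 200 genes changed 2-fold in FAN1KO cisplatin against FAN1KO saline, 169 were recovered among 14572 tested, with 5 unchanged genes called. Named genes were the 6 members, Exoc1 to Exoc8, up to 2 largest rises and 2 largest falls called in each list, the 3 most correlated genes of each member, and nearest tested neighbours, which were added after their values were seen, as were Furin, Gfral and Ret. Python 3.11.15 with pandas 2.3.3 drew summaries, and gene names and sequences came from RefSeq (GRCm38.p6), which named all but 1904 identifiers.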

Additional observations from a re-analysis of the deposited data

How the results depend on the processing

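The 6 genes gave 15 tested values, recomputed under 255 alternatives. Of these 235 kept their direction and their side of the threshold, 6 lost a call, 7 gained one and 7 changed direction, and the cause was not tested. Gdf15, Sesn2 and Ddit4 stayed called higher in FAN1KO cisplatin against FAN1KO saline kidneys under every alternative run, with log2 ranges of 3.92 to 4.61, 0.45 to 0.99 and 1.87 to 2.63. In that comparison median-ratio scaling gave −0.0093 for Sesn1 and 0.40 for Exoc4, a Y-linked covariate 0.43 for Sesn1 and 0.48 for Sesn3, and leaving out the libraries with Y-linked RNA 0.34 for Sesn1. Leaving out 1 library at a time gave ranges of 0.16 to 0.59 (Sesn1), 0.22 to 0.59 (Sesn3) and 0.77 to 0.93 (Exoc4).

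Between genotypes under cisplatin Sesn1 was −0.13 with median-ratio scaling and −0.011 to 0.33 with 1 library left out. Sesn3 was 0.97 without mitochondrially encoded genes and 0.79 to 1.15 with 1 library left out, and Ddit4 1.23 to 1.90. Under saline Ddit4 was 0.070 without the libraries with Y-linked RNA and −0.33 to 0.014 with 1 library left out, and Sesn1 −0.42 to 0.0043. The difference between cisplatin effects for Ddit4 was 1.79 with a Y-linked covariate, 1.46 without the libraries with Y-linked RNA and 1.42 to 2.09 with 1 library left out.

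Counts of all genes called moved more. For FAN1KO cisplatin against FAN1KO saline (5962) the count was 9141 with a Y-linked covariate and 3385 to 5866 with 1 library left out. The wild-type count of 9 was 15 with median-ratio scaling, 58 with a Y-linked covariate, 14 without mitochondrially encoded genes, 61 without the libraries with Y-linked RNA, 0 with only the 6 libraries of the comparison (limma, 322 at an unadjusted p under 0.05) and 0 to 40 with 1 library left out. For the genotypes under cisplatin (3585) it was 7323 with a Y-linked covariate, 2251 with only 6 libraries and 1342 to 3321 with 1 left out. Under saline (115) it was 72 with no filter, 421 with a Y-linked covariate, 294 without the libraries with Y-linked RNA, 29 with only 6 libraries and 43 to 78 with 1 left out. For the difference between cisplatin effects (935) it was 488 with median-ratio scaling, 4734 with a Y-linked covariate, 599 without mitochondrially encoded genes, 2333 without the libraries with Y-linked RNA and 164 to 1033 with 1 left out. Higher calls made up 87.7% in FAN1KO cisplatin against FAN1KO saline and 50.7% after median-ratio scaling, and 81.8% and 52.98% between genotypes under cisplatin.

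Same-numbered libraries are different mice, and the mean correlation of their departures from group means was −0.243 to −0.144. In each comparison the library with Y-linked RNA carried different numbers in the groups compared, which favours a low correlation. These values therefore cannot tell whether same-numbered libraries share anything beyond a number. With the replicate number as a block the wild-type count was 0 (limma, 403 at an unadjusted p under 0.05), the saline count 61 and the count for the difference between effects 424, and 0 of the tested member calls changed.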
